A study of Mus musculus with 2 samples.

Results

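The levels of 10 neuropeptide receptor genes were measured in the hippocampus: the somatostatin receptor genes Sstr1, Sstr2, Sstr3 and Sstr4, the neuropeptide Y (NPY) receptor genes Npy1r, Npy2r and Npy5r, the cholecystokinin (CCK) receptor gene Cckbr, the vasoactive intestinal peptide (VIP) receptor gene Vipr1 and the corticotropin-releasing hormone (CRH) receptor gene Crhr1. They were found by gene symbol among 55536 annotated genes, and all 10 matched once. The samples were 2 libraries of total RNA, replicates 1 and 2 of a single group: hippocampus from B6CASTF1/J females aged 36 days, with 300 ng of RNA each. This strain is the F1 hybrid between C57BL/6J and CAST/EiJ. The mice carried no transgene or treatment that the labels name. The labels call the tissue a hippocampal layer without saying which, and give both libraries a biosample of their own but the same donor identifier, so the spread given here is that between these samples. The values do not separate the alleles of the parents.

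These receptors sit in the cell membrane and pass a peptide signal to a G protein inside. Somatostatin and NPY receptors couple mainly to inhibitory G proteins, which lower cyclic AMP and open GIRK potassium channels. CCK signals through the B receptor to Gq, and VIP and CRH receptors act mainly through the stimulatory protein Gs. In the hippocampus somatostatin, NPY, CCK and VIP are made largely by GABAergic interneurons, while many of their receptors are on the excitatory neurons those cells contact.

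Summed expected counts, which divide a read among the transcripts it matches, were 32443497 in replicate 1 and 30125183 in replicate 2. Each library was quantified in 2 ways, and levels are from the first quantification unless the second is named. Of 15 marker lists for cell types and neighbouring regions, 14 were complete, with each gene at 1 TPM or more in each library (TPM is a transcript level scaled to RNA length and library size). Among them were those of excitatory neurons, with Slc17a7 at 568 and 529 TPM in replicates 1 and 2, and of GABAergic interneurons, with Slc32a1 at 28.0 and 26.1 TPM. The exception was choroid plexus, the tissue that secretes cerebrospinal fluid. Its 10 markers summed to 27.1 and 1301 TPM in replicates 1 and 2, of which Ttr alone made up 20.8 and 1237 TPM. Meningeal markers summed to 54.3 and 105.9 TPM in replicates 1 and 2, of which Igf2 alone made up 24.7 and 62.5 TPM. Oligodendrocyte markers summed to 1408 and 1068 TPM.

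The coding sequences of the receptors were compared. Of the 10, 8 are class A receptors, and the sequences here are the codons of the NPxxY motif (in capitals) near the inner end of the seventh membrane helix, with 15 coding bases before it and 6 after it, 5′ to 3′ from the GENCODE M21 transcript with the highest level.
Sstr1: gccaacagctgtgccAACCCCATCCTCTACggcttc
Sstr2: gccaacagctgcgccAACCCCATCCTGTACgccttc
Sstr3: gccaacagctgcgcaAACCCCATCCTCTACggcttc
Sstr4: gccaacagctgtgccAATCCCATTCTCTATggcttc
Npy1r: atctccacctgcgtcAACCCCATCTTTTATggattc
Npy2r: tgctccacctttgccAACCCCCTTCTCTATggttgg
Npy5r: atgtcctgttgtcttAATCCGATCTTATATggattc
Cckbr: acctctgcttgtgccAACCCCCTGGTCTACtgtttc
Among the somatostatin receptor genes 30 to 34 of these 36 bases were identical in each pair, whereas Npy2r and Npy5r shared 17, Npy1r and Npy2r 24, and Npy1r and Npy5r 26. Pairs across families shared from 18 (Sstr2 and Npy5r) to 25 (such as Sstr1 and Npy1r), so this stretch did not set the NPY receptor genes apart. Over the whole coding sequence the somatostatin receptor pairs were 63.9% to 70.3% identical, with Sstr1 and Sstr4 the closest, and the NPY receptor pairs 57.7% to 61.1%. Vipr1 and Crhr1 are class B receptors, held no match to the motif, and were 59.8% identical to each other. Whole coding sequences were not aligned across these groups, so the percentages have no baseline for less related genes. None of the 10 genes had an expected count off a whole number by more than 0.005, the mark taken here of reads shared with another gene. Sstr2 lies across from Slc39a11 on the opposite strand, without overlap of exons, and none of the other 9 overlapped an annotated gene.

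All 10 receptor genes reached 1 TPM in each library and so counted as detected, as did 57.6% of protein-coding genes (26.3% of all annotated genes). The gene levels lay between 2.63 and 30.5 TPM. Their median was 10.1 ± 0.39 TPM (SD over n = 2 libraries, as for all values given as mean ± SD), against 14.7 ± 0.042 TPM over the 12679 protein-coding genes detected. Only Sstr4 and Npy2r lay above the middle of those detected genes. In bulk tissue, fewer cells of a type and less RNA per cell cannot be told apart.

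Sstr4 (ENSMUSG00000037014.4, mm10 chromosome 2, 148395344 to 148396767, plus strand), an inhibitory somatostatin receptor gene whose only annotated transcript is a single exon, had the highest level of the 10. It had 950 and 903 counts, or 30.5 and 30.4 TPM, in replicates 1 and 2. Its mean of 30.4 ± 0.042 TPM was above that of 73.4% of detected protein-coding genes. The libraries were almost equal, and neither overlapped the value of any other of the 10 genes.

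The other somatostatin receptor genes lay close together. Sstr1 (ENSMUSG00000035431.4, chromosome 12, 58211772 to 58214444, plus strand) had 533 and 552 counts, or 12.01 and 13.02 TPM. Sstr2 (ENSMUSG00000047904.6, chromosome 11, 113619342 to 113626028, plus strand), which encodes the main target of the drug octreotide, had 453 and 479 counts, or 9.52 and 10.6 TPM. Sstr1 stood above Sstr2 in both libraries, with no overlap. Sstr3 (ENSMUSG00000044933.3, chromosome 15, 78537008 to 78544685, minus strand), whose product is placed in the primary cilium of neurons, had 898 and 878 counts. Its level was 10.04 TPM in both libraries and fell within the range of Sstr2. The summed level of the 4 genes was 62.0 and 64.1 TPM in replicates 1 and 2, of which Sstr4 made up 49.1% and 47.5%. The fifth gene of the family, Sstr5, was listed with 2 and 4 counts, or 0.04 and 0.07 TPM.

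Among the NPY receptor genes Npy2r led. Npy2r (ENSMUSG00000028004.12, chromosome 3, 82538383 to 82548084, minus strand), known as a presynaptic receptor that limits transmitter release, had 1282 and 1029 counts, or 18.7 and 15.4 TPM. Npy1r (ENSMUSG00000036437.6, chromosome 8, 66697192 to 66706792, plus strand), the receptor gene best known from postsynaptic sites, had 739 and 700 counts, or 11.05 and 11.03 TPM. Npy5r (ENSMUSG00000044014.9, chromosome 8, 66679965 to 66688128, minus strand), a gene known for the control of feeding, had 164 and 190 counts, or 3.59 and 4.44 TPM. The 3 ranges did not overlap. Npy1r and Npy5r are neighbours that run away from each other, with 9063 bases between their outermost annotated starts, and had mean levels of 11.04 ± 0.014 and 4.02 ± 0.60 TPM. Of the further receptor genes of this family, Npy4r had 1 and 0 counts and Npy6r had 0 in both libraries. A count of 0 allows up to 0.0929 and 0.09996 CPM (counts scaled to library size) in replicates 1 and 2, taking 3 counts as the limit, for counting error only.

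The receptor genes for CCK, VIP and CRH were the lowest along with Npy5r. Vipr1 (ENSMUSG00000032528.5, chromosome 9, 121642716 to 121672954, plus strand) had 547 and 541 counts, or 6.01 and 7.74 TPM. Crhr1 (ENSMUSG00000018634.10, chromosome 11, 104132855 to 104175523, plus strand), the main CRH receptor gene of the brain in the stress response, had 195 and 166 counts, or 3.51 and 3.14 TPM. Cckbr (ENSMUSG00000030898.15, chromosome 7, 105425731 to 105470898, plus strand), the main CCK receptor gene of the brain, had 153 and 191 counts, or 2.63 and 3.44 TPM. The values of Cckbr and Crhr1 overlapped, so that no order between them was drawn.

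In the order of mean level, Sstr4, Npy2r, Sstr1, Npy1r, Sstr2, Sstr3, Vipr1, Npy5r, Crhr1 and Cckbr, the libraries kept 7 of the 9 neighbouring pairs apart. The pairs that overlapped were Sstr2 with Sstr3 and Crhr1 with Cckbr. The gap between Npy5r, at 3.59 TPM or more, and Crhr1, at 3.51 TPM or less, was narrower than the deposited bounds, which ran from 3.01 to 4.14 TPM for Npy5r in replicate 1 and from 2.95 to 3.90 TPM for Crhr1 in the same library. Bounds overlapped for other pairs kept apart too. In replicate 1 Npy1r (9.983 to 11.53 TPM) overlapped both Sstr1 (10.71 to 12.72 TPM) and Sstr2 (8.521 to 10.29 TPM). In replicate 2, Npy1r (9.945 to 11.55 TPM) again overlapped Sstr2 (9.557 to 11.51 TPM). Sstr3 (8.814 to 12.2 TPM) there overlapped Vipr1 (6.887 to 11.49 TPM). Npy1r and Sstr2 overlapped in both libraries, but each of the other pairs named in 1 library only. In replicate 2 the bounds of Npy5r (3.756 to 5.058 TPM) and Crhr1 (2.609 to 3.538 TPM) were apart. The order of these pairs is therefore not settled by the bounds of both libraries. The second quantification also kept 7 of 9 pairs apart, and there Sstr3 had a mean of 17.5 ± 1.96 TPM and Sstr2 one of 15.5 ± 1.44 TPM, with overlap. Its levels were 1.54 to 1.80 times those of the first over the 10 genes, against a median of 1.71 over the detected protein-coding genes.

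**Figure D1:**
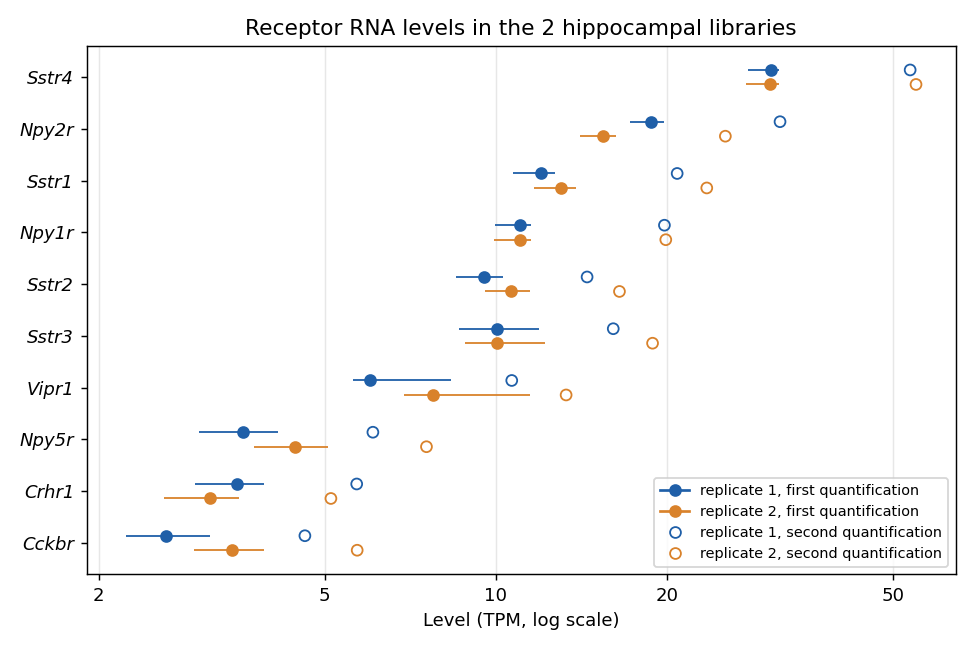
Level of each receptor gene in TPM on a log axis, in replicate 1 (blue) and replicate 2 (orange), from the first quantification (filled points, with lines for the authors' deposited bounds) and the second (open points). Sstr4 stands highest at 30.5 and 30.4 TPM. The lines of Npy5r, Crhr1 and Cckbr overlap in replicate 1, while in replicate 2 those of Npy5r and Crhr1 are apart. Lines also overlap between Sstr1 and Npy1r in replicate 1, Sstr3 and Vipr1 in replicate 2, and Npy1r and Sstr2 in both.

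The transcripts of each gene were compared next, since several of the receptors have forms that differ in their coding end or start site. Of the 10 genes, 8 have more than 1 annotated transcript. For 7 of the 8 both quantifications named the same leading transcript, against 75.1% of detected genes with 2 or more transcripts. The coding part of the leading transcript lay in a single exon in 6 genes (the 4 somatostatin receptor genes, Npy2r and Npy5r).

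Sstr2 has 2 known receptor forms that differ in their tail inside the cell, named A (unspliced) and B (spliced). Sstr2-203 has 2 exons, with its coding part unspliced in 1 of them. It took 96.5% and 94.95% of the gene's TPM in replicates 1 and 2. Sstr2-202, whose coding part is spliced, took 3.48% and 5.05%. The second quantification gave 3.10% and 5.63% for Sstr2-202. The number of reads behind it was small, with expected counts of 11.2 and 17.3. The transcripts share their first 994 coding bases and then part, which is shown here by the last 18 shared bases followed, in capitals, by the coding bases of each form that come after the first difference, without the stop codon.
Sstr2-203: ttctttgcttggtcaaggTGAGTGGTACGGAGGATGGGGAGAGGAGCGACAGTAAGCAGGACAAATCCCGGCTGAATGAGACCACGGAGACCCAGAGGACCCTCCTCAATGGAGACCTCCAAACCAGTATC
Sstr2-202: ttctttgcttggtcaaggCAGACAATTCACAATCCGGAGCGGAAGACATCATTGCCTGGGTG
The ending of the leading form is 113 bases long and that of the minor form 44 bases.

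The NPY receptor genes differed in their transcripts mostly outside the coding part. Npy1r-201 took 74.5% and 70.0% of its gene's TPM and Npy1r-202, which starts 230 bases further upstream and encodes the same protein, took 25.5% and 29.99%. The second quantification put Npy1r-202 higher, at 40.2% and 49.2%. Npy2r was split in the first quantification among Npy2r-201 (39.6% and 55.4%), Npy2r-202 (40.0% and 28.0%) and Npy2r-204 (20.4% and 16.6%). These 3 transcripts hold the same coding sequence. All 3325 exonic bases of Npy2r-202 lie within those of Npy2r-201, which has 39 more, and the second quantification gave Npy2r-202 0 TPM, to 2 decimals, in both libraries. Npy2r-203, with a shorter coding sequence of 804 bases, had 0 TPM in the first quantification and 2.53 and 0 TPM in the second. The 3 transcripts of Npy5r share a coding sequence too, and the quantifications disagreed on the leader by mean level. The first gave Npy5r-201 52.7% and 46.0% and Npy5r-203 37.4% and 50.1%. The second gave Npy5r-201 42.75% and 40.3% and Npy5r-202 39.9% and 59.7%. In replicate 1 Npy5r-201 thus led in both quantifications, and the disagreement came from replicate 2.

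Sstr1-201 took 89.0% and 91.2% of its gene's TPM. Sstr1-202, which has the same coding sequence, took 11.03% and 8.77%. Sstr3-201 took 90.2% and 92.8%, beside Sstr3-202, a short transcript of 448 bases with 8.12 and 5.64 expected counts. The second quantification gave Sstr3-201 94.0% and 83.5%, and Sstr3-202 5.98% and 16.5%. All Cckbr counts fell on Cckbr-201, with 0 on the shorter Cckbr-202 in both quantifications. Crhr1 and Sstr4 have a single annotated transcript each.

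The level of Vipr1 depended on which of its transcripts were counted. The protein-coding transcript Vipr1-201 stood at 4.68 and 4.76 TPM in replicates 1 and 2, almost the same in both. The 4 transcripts of the gene that are not coding summed to 1.33 and 2.98 TPM on 17.97 and 28.3 expected counts. Of these, Vipr1-205 took 7.86% and 20% of the gene's TPM, Vipr1-202 took 14.3% and 6.72%, and Vipr1-203 took 0% and 11.7%. Vipr1-203 accounted for 0 and 0.91 TPM in replicates 1 and 2, but for 0 TPM in both by the second quantification. The 4 are 224 to 763 bases long, against 4902 bases for Vipr1-201, so that few reads weigh heavily in TPM. The coding share of the gene's TPM was 77.9% and 61.5%, or 72.0% and 61.7% in the second quantification. The difference between 6.01 and 7.74 TPM for the whole gene did not appear in its counts, 547 and 541, nor in the coding transcript.

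**Figure D2:**
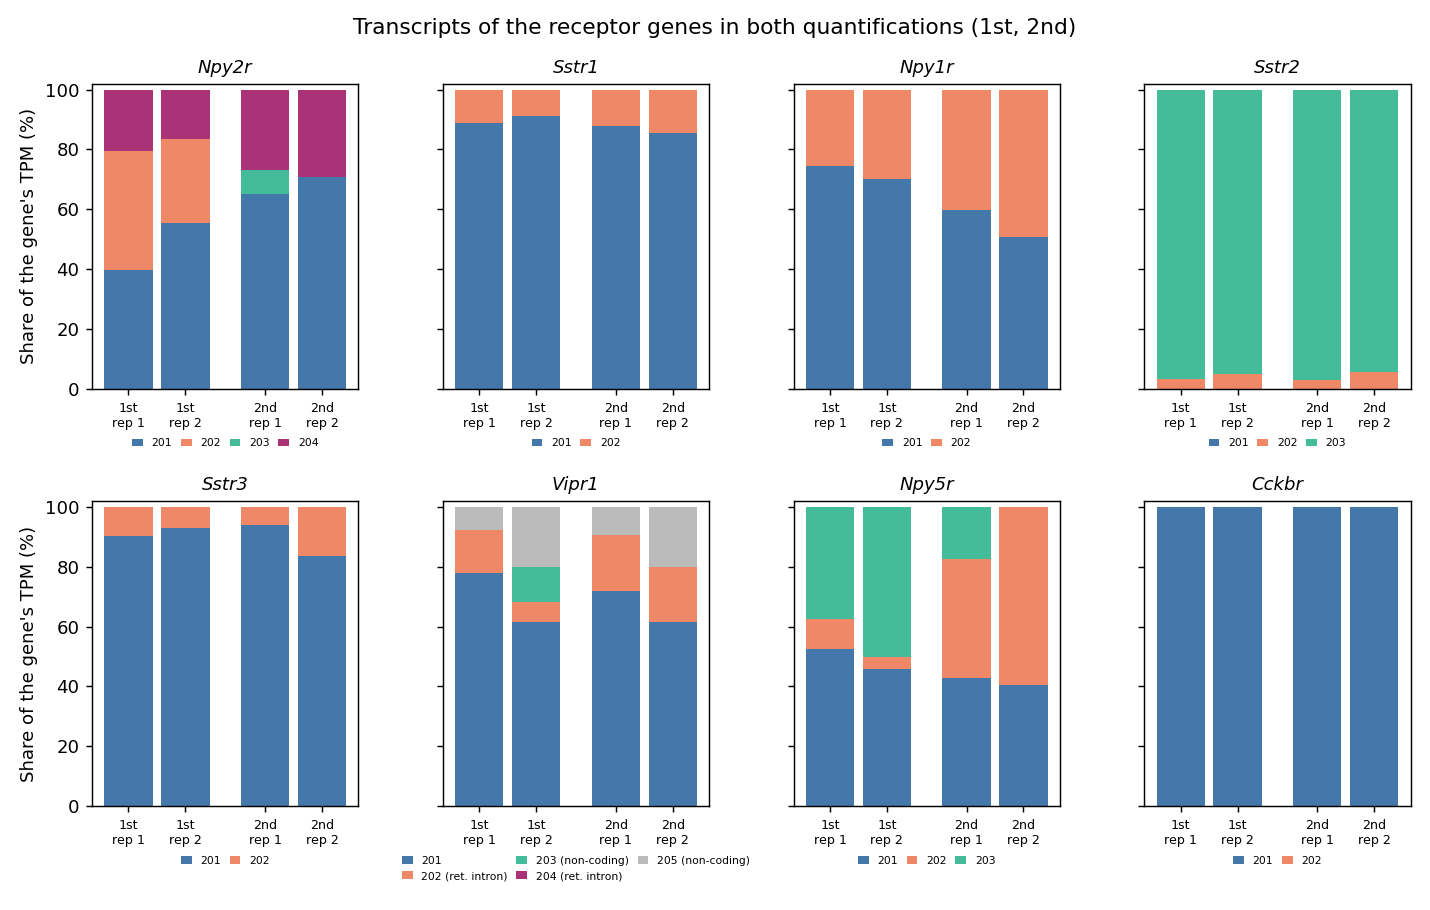
Share of each gene's TPM, in percent, taken by its annotated transcripts (colours) in replicates 1 and 2, from the first and the second quantification, for the 8 genes with more than 1 transcript. Sstr2-203 takes 96.5% and 94.95% of Sstr2 in the first quantification, while the split within Npy2r and Npy5r changes with the quantification.

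The replicates were set against each other on counts scaled by the TMM method, as log2 ratios of replicate 1 over replicate 2. With 1 library on each side there is no test, and a gene counted as apart when the higher library exceeded the lower by over 25%. Of the 10 genes, which all had a mean count of 100 or more, 1 was apart by this measure, against 6.24% of the 12651 genes with that count. The gene was Cckbr, with a ratio of −0.39 (95% exact binomial interval −0.71 to −0.08, for counting error only). It was 1.31-fold lower in replicate 1. The second quantification gave −0.27, short of that threshold. None of the 10 was over 2-fold apart, against 0.466% of those genes.

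Npy2r had a ratio of 0.24 (0.12 to 0.36) and Npy5r one of −0.29 (−0.60 to 0.02). The intervals of Npy2r and Cckbr lay off 0, and those of the other 8 genes held it. How many of the 12651 genes had an interval off 0 was not counted, so these 2 have no background beside them. Sstr4, Npy1r and Sstr3 had ratios of 0.00, 0.00 and −0.04. Crhr1 had 0.16, while Sstr1, Sstr2 and Vipr1 had −0.12, −0.15 and −0.06. In all, 3 of the 10 genes were higher in replicate 1 and 7 in replicate 2, with a median of −0.05. The split was 4 and 6 with DESeq2 scaling and 2 and 8 with total-count scaling. Of the 12651 genes, 7025 were higher in replicate 1 and 5626 in replicate 2, with a median of 0.02. Scaling to the spike-in RNAs moved the median of those genes to −0.25 and that of the 10 receptors to −0.32, and put all 10 below 0. Beside the ratio of Npy2r, 3 markers of CA3 pyramidal neurons with a mean count of 100 or more (Cpne4, Homer3 and Bok) had ratios from 0.32 to 0.36. The 5 oligodendrocyte markers ran from 0.33 to 0.51 and the 5 excitatory neuron markers from 0.10 to 0.38, in the same direction as Npy2r. Beside the ratio of Cckbr, the 7 choroid plexus markers with that count ran from −5.89 to −1.94 and 5 meningeal markers from −1.36 to −0.07, in its direction. The dentate granule cell markers, 4 of 5 of them lower in replicate 1, ran from −0.28 to 0.07, and the 5 cerebral cortex markers from 0.00 to 0.39. The other 8 marker lists had medians from −0.13 to 0.15. The part of these tissues in the receptor values was not tested.

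**Figure D3:**
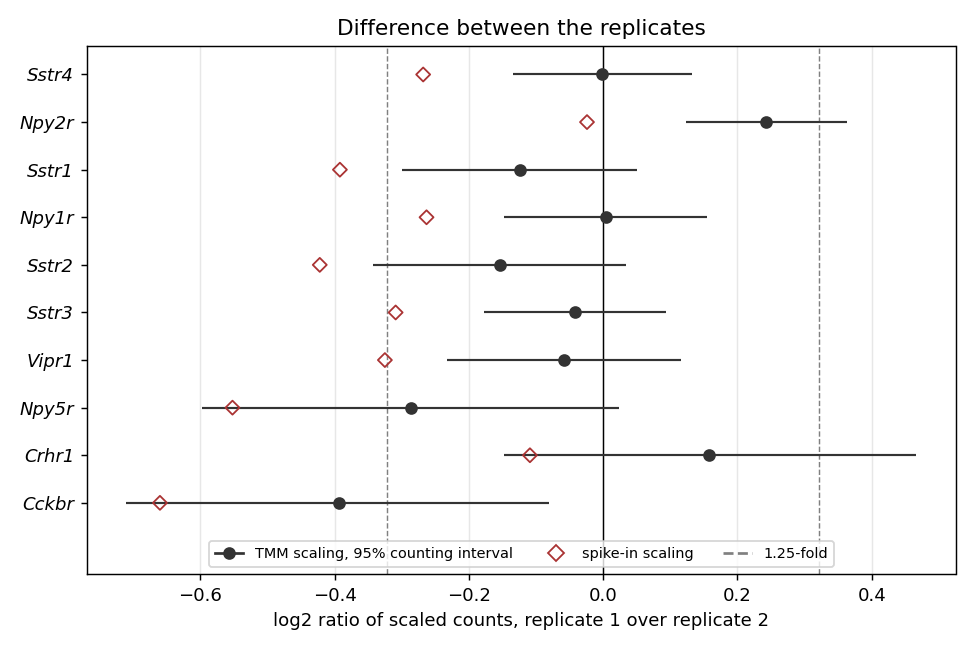
Log2 ratio of replicate 1 over replicate 2 for each receptor gene with TMM scaling (filled points, lines for the 95% counting interval) and with spike-in scaling (open diamonds). Dashed lines mark a difference of 25%, which Cckbr alone passes with TMM scaling, at −0.39.

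The ligands set the frame for these levels. Of 14 ligand and binding protein genes, 7 were detected. Cck, at 320 and 284 TPM in replicates 1 and 2, and Sst, at 180 and 167 TPM, were far above any of their receptor genes. Npy was at 61.8 and 51.8 TPM. Crhbp, which encodes a protein that binds and holds back CRH, was at 9.84 and 8.05 TPM and Vip at 6.64 and 6.32 TPM. Cort, whose peptide cortistatin also binds somatostatin receptors, was at 4.19 and 4.86 TPM, and Adcyap1, the gene of the peptide PACAP, at 3.35 and 2.49 TPM. Crh itself was at 1.18 and 0.91 TPM, below the level of Crhr1 in both libraries. Ucn2, a further ligand gene for CRH receptors, had 4 and 7 counts, Gast and Ucn had 1 and 0 counts each, and Pyy, Ppy and Ucn3 had 0 in both libraries.

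The other receptor genes of the same families differed widely from the 10. Adcyap1r1, the PACAP receptor gene, was at 55.2 and 59.6 TPM and above all 10 in both libraries. Vipr2 was at 0.20 and 0.59 TPM, on 12 and 32 counts. Crhr2 was at 1.26 and 2.25 TPM, on 48 and 105 counts, a 2.29-fold difference beside that in the choroid plexus markers given above, whose part in it was not tested. Cckar had 1 and 0 counts. Of these 7 genes, 2 were detected, Adcyap1r1 and Crhr2.

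**Figure D4:**
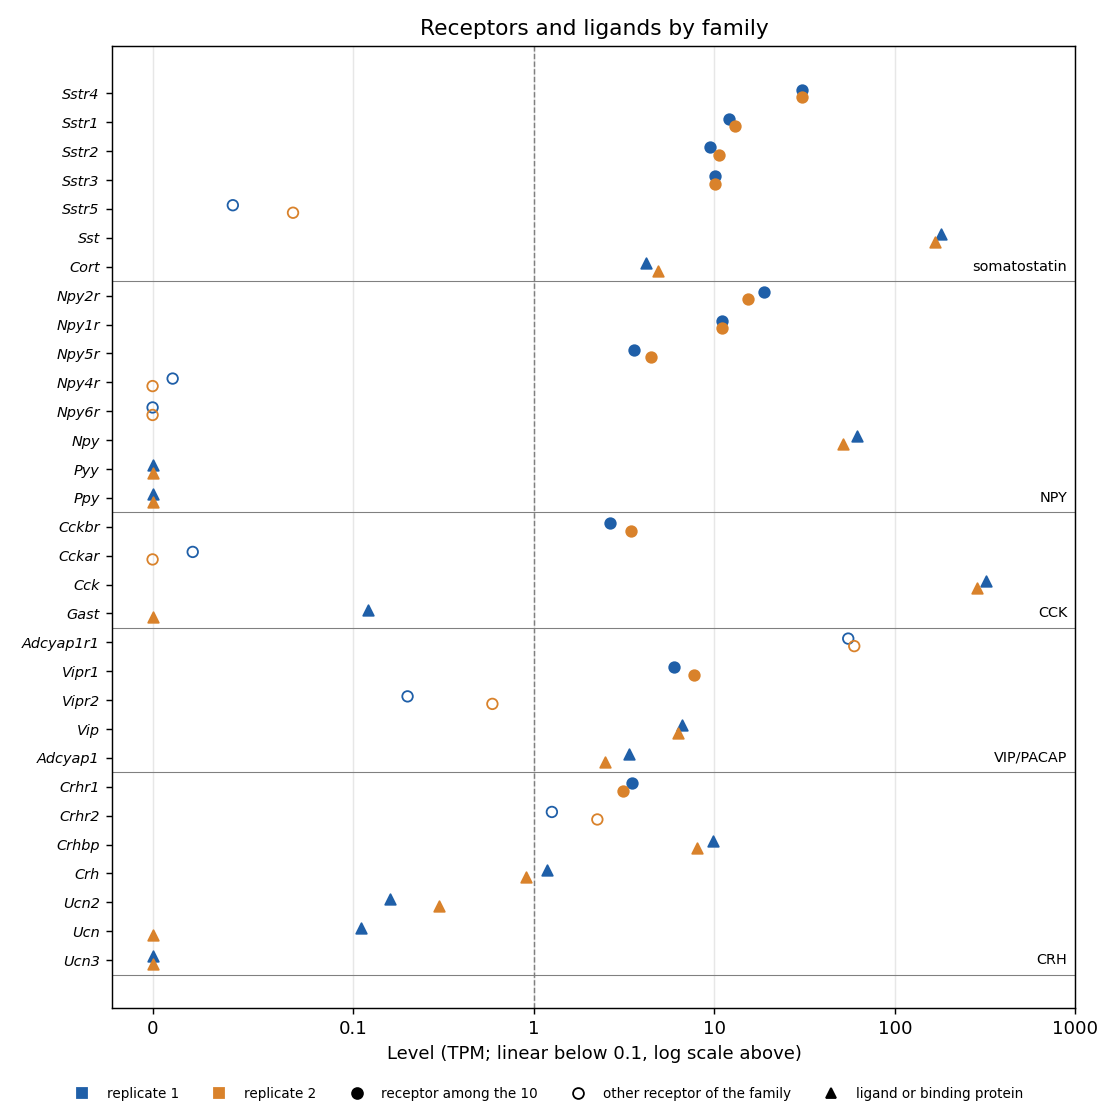
Level in TPM (linear below 0.1, log scale above) of the receptors (circles, filled for the 10) and of the ligands or binding protein (triangles) of each family, in replicate 1 (blue) and replicate 2 (orange), with a dashed line at 1 TPM. Cck and Sst lie far to the right of their receptors, while Crh lies left of Crhr1.

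The genes that carry the signal onward had higher list medians than the 10 receptors, on the same TPM scale. Of 9 genes for inhibitory G proteins and GIRK channels 8 were detected, with a median of 44.1 ± 2.42 TPM, led by Gnao1 at 260 ± 12.3, Gnai2 at 84.99 ± 2.73 and Gnai1 at 69.7 ± 4.07 TPM. The exception was the channel gene Kcnj5, at 0.14 and 0.12 TPM. All 12 genes of the Gs and Gq routes were detected, at a median of 43.96 ± 0.88 TPM, led by Gnas at 737 ± 10.3, the adenylyl cyclase gene Adcy1 at 139 ± 1.41 and Gnaq at 79.3 ± 5.59 TPM. The 7 genes for receptor kinases and arrestins, which switch such receptors off, were all detected at a median of 30.2 ± 0.49 TPM, with Grk2 at 74.5 ± 5.11, Arrb1 at 55.7 ± 4.53 and Arrb2 at 40.5 ± 1.22 TPM. None of the genes of these 3 lists with a mean count of 100 or more was over 25% apart between the libraries.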

How the data were processed

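Total RNA from 2 libraries was analysed. In the gene table and in 2 transcript tables per library the authors deposited expected counts (estimated counts, which need not be whole) and TPM, and in 1 transcript table each transcript's share of its gene, in percent, per the file headers. The bounds on TPM, a signal-type column, are the authors' deposited values, and their confidence level is not given in the sources used here. The build was mm10 with GENCODE annotation M21, per the labels and the accompanying notes. Column names match RSEM output in the first quantification and kallisto output in the second. Software versions and how strand was used in counting: not given in the sources used here.

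The 10 genes and all gene lists were chosen with earlier results of these data known. Gene symbols, coordinates and exons came from GENCODE M21. A gene at 1 TPM or more in each library was called detected. The counts were rounded and scaled with edgeR 4.0.16 (TMM, prior count 0.5) in R 4.3.3. Entries that name no gene (4 and 5 counts, 1.23e-05% and 1.62e-05% of the total) and spike-ins were left out of library sizes. The ratio calculation was checked on simulated counts with known fold changes. Intervals are exact binomial intervals at 95% and cover counting error only. DESeq2 1.42.0 gave alternative size factors. Coding sequences were aligned globally with Biopython 1.88, and identity is over aligned bases. Named are all 10 genes, all ligands, and, of the 7 gene lists, the 3 highest genes of each and those over 2-fold apart. The rule did not cover the marker lists, whose named genes are examples. The remaining steps used Python 3.11.15 with pandas 2.3.3, scipy 1.17.1 and matplotlib 3.10.9. Reads of the CAST/EiJ copy were quantified against mm10, the C57BL/6J genome, and what this does to the levels was not tested.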

Additional observations from a re-analysis of the deposited data

How the results depend on the processing

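The count of 10 detected receptors held at 0.5 and 2 TPM, in the second quantification and in each library alone, and was 7 at 5 TPM. The number of receptors over 25% apart, 1 in the main setting, was 5 with spike-in scaling (Cckbr, Npy5r, Sstr1, Sstr2 and Vipr1), 2 with the ratio of deposited TPM (Cckbr and Vipr1) and 0 with the second quantification, at 1.5-fold or at 2-fold. Total-count and DESeq2 scaling, other count minimums and, chosen after seeing the data, the coding transcript of Vipr1 alone left it at 1. Spike-in scaling moved the median ratio of the 12651 genes as well, from 0.02 to −0.25. The share of all genes over 25% apart was counted in the main setting only (6.24%), so the other counts have no background beside them. The median level of the 10 genes, 10.1 TPM, was 16.5 TPM in the second quantification, 23.3 TPM when rescaled to protein-coding genes, 7.42 CPM per kilobase from TMM-scaled counts, and, as alternatives chosen after seeing the data, 8.87 and 11.2 TPM at the deposited lower and upper bounds. With 1 replicate left out it ran from 9.78 to 10.3 TPM. The leading transcript was then shared by the quantifications in 7 genes either way, but not the same 7. The exception was Npy2r in replicate 1 alone and Npy5r in replicate 2 alone. By expected counts the number of genes with a shared leader was 8, and 6 when it had to hold in each library. The level of Vipr1 was 4.72 TPM from its coding transcript alone. Over the 7 gene lists, 64 of 96 distinct genes were detected, and 56 to 72 under the alternatives. For single genes, all 31 alternative levels from the second quantification, rescaling, counts per kilobase or the Vipr1 coding transcript moved by over 1 SD, while leaving out 1 of 2 libraries cannot do so and says nothing of stability. Of the ratios, 5 alternatives passed and 1 lost the 25% threshold, and that of Npy2r, 0.24, was −0.02 with spike-in scaling. No paired analysis was possible because the design holds a single group. With 153 to 195 counts a library, Npy5r, Crhr1 and Cckbr are limited most by depth.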

Other observations

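Among 40 receptor genes for other neuropeptides, 21 were detected in both libraries, with a list median of 1.17 ± 0.12 TPM. The highest were Ntsr2, a neurotensin receptor gene known from astrocytes, at 78.3 ± 0.17 TPM, the natriuretic peptide receptor gene Npr2 at 21.7 ± 1.499 TPM and the nociceptin receptor gene Oprl1 at 20.6 ± 2.05 TPM. Ntsr2 stood above all 10 receptors of the report, whereas Npr2 and Oprl1 lay below Sstr4. The genes over 2-fold apart between the libraries all had low counts in replicates 1 and 2, with 1 and 7 for Tacr2, 0 and 7 for Mc3r, 7 and 14 for Bdkrb2, 0 and 2 for Galr2, 1 and 3 for Galr3 (whose count includes shared reads) and 1 and 0 for Npffr2.

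Genes of the primary cilium, the organelle that holds the Sstr3 receptor in neurons, numbered 8, and all 8 were detected, with a median of 8.65 ± 0.26 TPM. Gpr161 led at 26.4 ± 1.81 TPM, followed by the cyclase gene Adcy3 at 19.3 ± 0.88 and Bbs4 at 16.9 ± 1.80 TPM. Mchr1, whose receptor is also known from neuronal cilia, was at 9.09 and 9.24 TPM in replicates 1 and 2, close to Sstr3 at 10.04 TPM in both.

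In the 300 bases around the annotated start that RefSeq gives (GRCm38.p6), 9 of the 10 genes were matched. Sstr4 and Vipr1 each held 35 CpG pairs, Crhr1 31 and Sstr2 27, against a median of 7 over 32851 windows. Cckbr and Npy5r each held 15, Npy2r 14, Npy1r 10 and the 2 windows of Sstr3 10 and 1. The cyclic AMP response motif TGACGTCA was found in the window of Sstr2 alone among the 9, and in 1.79% of all windows, searched on both strands. Other motifs were searched too. CACGTG was found for Cckbr, Npy5r and Sstr3 (7.15% of all windows). GGGCGG was found for Npy2r, Vipr1, Crhr1 and Sstr2 (35.7%), and CCAAT for Sstr4, Cckbr, Npy5r, Vipr1 and Sstr3 (37.4%). TATAAA was found for none of the 9 (13.6%).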
